A study of Mus musculus with 6 samples.

Results

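The regions described here are the places in the genome that gave the strongest methylation signal in wild-type mouse colonic mucosa. They were chosen from spots of a methylation array that carry a position on chromosomes 1 to 19, leaving out a 40 Mb window on chromosome 3. A spot was a member when its wild-type signal was in the top 10% of these spots on both methylation arrays. Of 100045 ranked spots, 5589 met this rule, at 5281 distinct probe positions. Joining member probes with no more than 500 bp between neighbouring starts gave 3386 regions. The wild-type signal chose the members, so their wild-type values, and every ratio that holds these values, are given as description with no test.

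The material was colonic mucosa of C57BL/6 mice at 90 postnatal days, either wild type or carrying a knockout of Tlr2, a receptor of innate immunity that senses bacterial lipoproteins. Genomic DNA of 2 knockout samples was hybridised with DNA of 2 wild-type samples, giving pair 1 and pair 4, so each array holds 1 sample of each genotype. Wild-type DNA carried the green dye Cy3 and knockout DNA the red dye Cy5 on both arrays. Dye and genotype therefore cannot be told apart in any ratio below. The comparisons are described as independent, but no label says that each sample code is a separate animal. How the knockout was made, its backcross history and whether tissue was pooled were not stated in the labels.

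CpG methylation is the addition of a methyl group to cytosine in the dinucleotide CG, and in mammals most CpG sites outside CpG islands carry it. The array method reads it through the enzyme SmaI, which cuts its CG-containing site only when the site is unmethylated. As the method is generally described, a second enzyme then cuts the remaining methylated sites, adapters are joined to these ends, and the fragments between neighbouring methylated sites are amplified by PCR and labelled. A bright probe is thus read as lying in a fragment whose flanking sites were methylated in many DNA molecules and which amplified and hybridised well. How many places in the genome a probe's sequence matches was not examined, so the part of repeated or similar sequences in the signal was not tested. The signal is a fluorescence intensity in arbitrary units, after the background subtraction and dye scaling of the scanner software, and it is not calibrated to a share of methylated molecules. For this reason the members are called the regions with the strongest wild-type signal, and not the most methylated regions. Positions are of the mouse build mm9, which the array headers name. No sequence and no gene annotation of that build was used here, so no region is assigned to a gene.

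The labels were checked on the 4 expression arrays of the same series. The log2 ratio of Tlr2 mRNA, knockout over wild type, lay between -6.81 and -5.93 on these arrays. Of 10 colonic epithelial marker genes, 9 were measured, and all 9 were above background in wild type on all 4 arrays. The 6 markers of muscle, leukocytes, fibroblasts, endothelium and fat also had at least 1 spot above background there, so RNA of other cell types was detected. Their wild-type signals were weak, at most 1310 for Ptprc in pair 5. The weakest epithelial marker, Cdx1 in pair 4, had 10100. In RNA of pairs 1 and 4, the log2 ratios of these markers, knockout over wild type, differed in size and sign. The smooth muscle genes Des and Myh11 had -2.49 and -1.72 in pair 1 and -1.48 and -0.87 in pair 4. The fat cell gene Adipoq had -1.82 and 2.50, from 1 spot with wild-type signals of only 157 and 184. Ptprc of leukocytes had 0.93 and 0.19, Col1a1 of fibroblasts 0.43 and -0.58, and Pecam1 of endothelium -0.37 and 0.35. Fewer cells of a type and less RNA per cell cannot be told apart in such samples, and the part of these cells in the DNA signals, the wild type of pair 1 included, was not tested.

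The 2 wild-type samples selected the members unequally. In the wild type of pair 1 the median signal of all ranked spots was 10305, the top 10% began at 30351 and the members had a median of 37293. The wild type of pair 4 had a lower scale, with a median of 2802, a threshold of 7977 and a member median of 10457. A spot's place is therefore compared through its rank within a channel, or through a ratio centred on the array's median over all positioned spots. Pair 1 was the limiting sample, the one in which the spot stood closer to the threshold, for 3527 members, and pair 4 for 2062.

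The wild type of pair 1 stood apart from the other 3 channels. The top 10% of each channel held 10005 spots. Those of the 2 knockout samples shared 8877 spots, or 88.7%. The wild type of pair 4 shared 80.8% of its top 10% with the knockout of pair 1 and 82.3% with the knockout of pair 4. The wild type of pair 1 shared 55.9% with the other wild type, 48.7% with its own array's knockout and 51.1% with the knockout of pair 4. The 55.9% are the members. Another 4416 spots were in the top 10% of the wild type of pair 1 only, and another 4416 in that of pair 4 only.

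**Figure D1:**
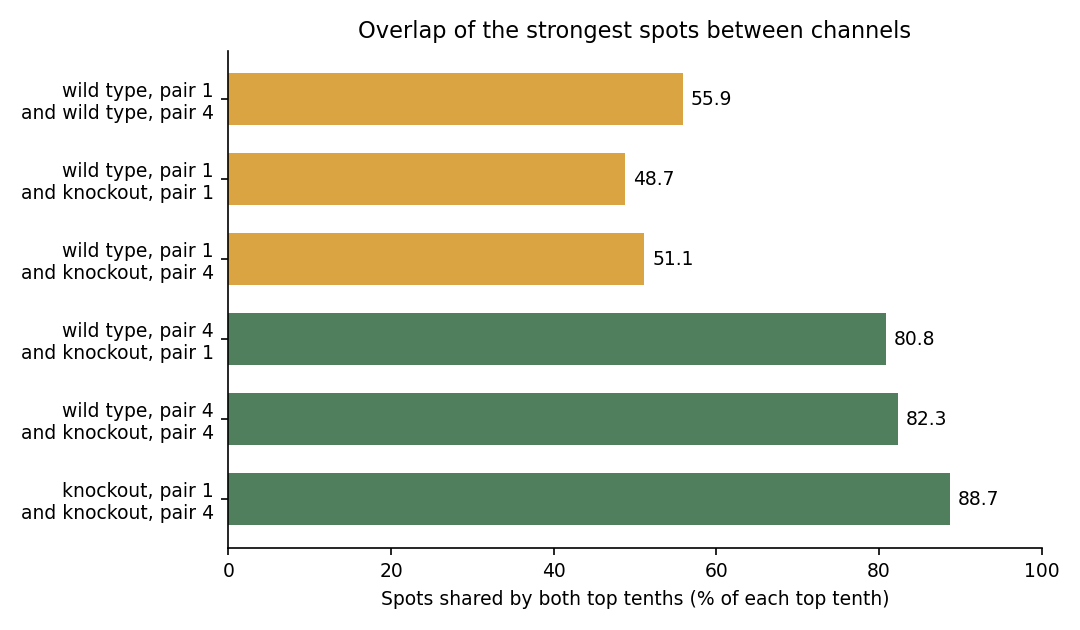
Share of spots, in percent of the 10005 strongest spots of each channel, that 2 channels have in common, for the 6 pairs of channels. The 3 bars that involve the wild type of pair 1 lie between 48.7% and 55.9%, and the other 3 between 80.8% and 88.7%.

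Ranks within the members were compared too. Across the 5589 members, Spearman's rho between the 2 knockout samples was 0.91, and between the wild type of pair 4 and the 2 knockouts 0.72 and 0.77. Between the wild type of pair 1 and the other channels it was 0.18 for the other wild type, -0.01 for the knockout of pair 1 and 0.05 for the knockout of pair 4. Over all ranked spots these values were between 0.93 and 0.99. Members are spots of shared arrays, probes and fragments and not independent points, so these correlations are descriptions only. The choice of members cut the range of both wild types, most often at the limit of pair 1, and many knockout values were saturated, so the values within members are not comparable between channels.

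In the knockout, which the rule did not use, most members were also among the strongest spots. Both channels read the same spots and probes, so this is a description and no separate check of the choice. The knockout signal of members had a median of 43388 in pair 1, with a range from 1998 to 81876, and of 13613 in pair 4, with a range from 698 to 24108. The median rank percentile of members was 96.8 in the knockout of pair 1 and 96.6 in that of pair 4. Of the members, 4694 (84.0%) were in the top 10% of the knockout in pair 1, 4840 (86.6%) in pair 4 and 4578 (81.9%) in both. Of all ranked spots, 10% were there on each array by definition, and 8.87% on both. These 4578 spots were 51.6% of the 8877 spots that were in the knockout's top 10% on both arrays. Among spots that were in the top 10% of the wild type of pair 1 only, 149 of 4416 (3.37%) reached the knockout's top 10% on both arrays. Among those of pair 4 only, it was 3097 of 4416 (70.1%). With each array used alone, 82.3% of the wild-type top 10% of pair 4 was in the knockout's top 10% of that array, and 48.7% in pair 1.

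Few members ranked low in the knockout. On both arrays, 633 members lay below the 90th percentile of the knockout signal, 43 below the 80th, 12 below the 75th and 2 below the median. The 2 below the median are neighbouring probes on chromosome 5, described further on. Every member was above background in the knockout on both arrays.

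The knockout channel was saturated for many members, which means that the scanner could not record a stronger signal. This held for 1402 members (25.1%) in pair 1 and 918 (16.4%) in pair 4, against 1.46% and 0.986% of all ranked spots. On both arrays, 780 members (14.0%) were saturated, and 4049 (72.4%) were unsaturated on both. No member was saturated in the wild type. The median signal of saturated knockout spots was 49193 in pair 1 and 16895 in pair 4. To be over 1.6-fold higher in the knockout after centring, a member needed more than this signal in all 5589 cases in pair 1, and in 3444 cases (61.6%) in pair 4. This median is no ceiling, as the knockout signal of members reached 81876 in pair 1 and 24108 in pair 4. The member spot chr8:87888806-87888850, unsaturated in the knockout, had 50979 in pair 1. A knockout value of a saturated probe is only a bound, and how far saturation hid gains over wild type was not tested.

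The members were mostly short probes. Probes were 45 to 60 bases long, and 52.2% of members had 45 bases, against 26.4% of ranked spots. Only 5.83% of members had 60 bases, against 33.1% of ranked spots. Of the 26370 ranked spots with 45 bases, 11.1% were members, and of the 33095 with 60 bases, 0.985%. The spots of the wild type of pair 1 alone leaned further the same way, with 70.1% of 45 bases, and those of pair 4 alone less, with 29.5%.

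Probe length also went with the ratio of all spots, and differently on the 2 arrays. In pair 1 the median centred log2 ratio of all ranked spots was -0.55 for probes of 45 bases and 0.22 for those of 60. In pair 4 it was 0.06 and -0.10. Among members it was 0.06 for probes of 45 bases and 0.29 for those of 60 in pair 1, and 0.22 and 0.23 in pair 4. The difference by length was thus seen in members of pair 1 and hardly in members of pair 4. Ranked within each probe length, an alternative chosen after seeing the data, 6138 spots were in the top 10% on both arrays. They held 3346 of the 5589 members, or 59.9% of the members and 54.5% of the new set. The choice of members thus depended on probe length, and base composition was not tested.

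**Figure D2:**
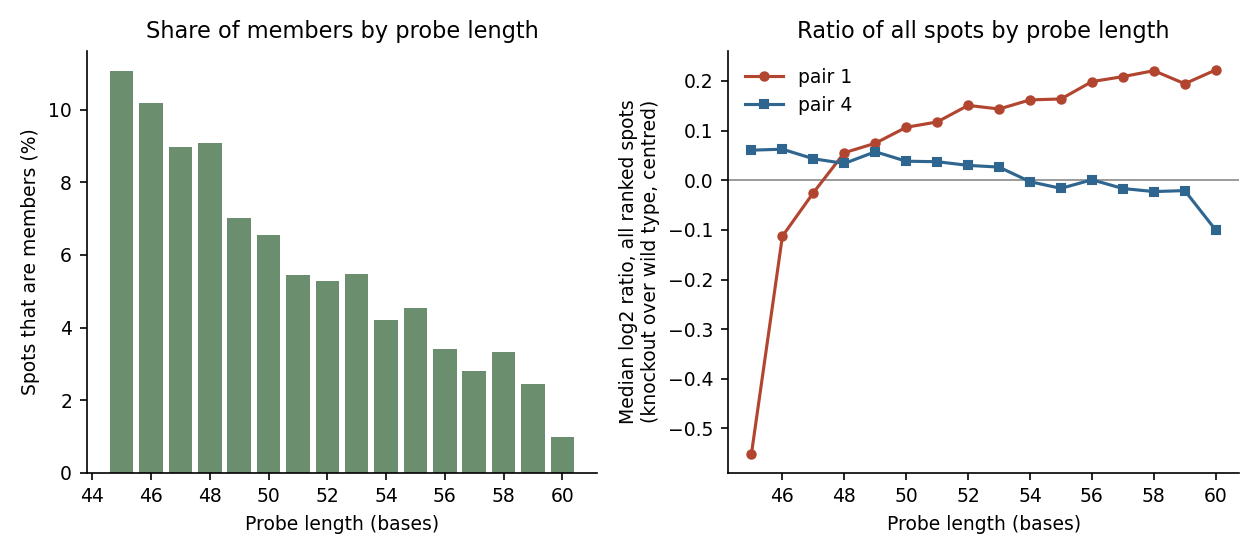
Left, the share of ranked spots that are members, in percent, for each probe length in bases. Right, the median log2 ratio of all ranked spots, knockout over wild type and centred on each array's median, for each probe length. The share falls from 11.1% at 45 bases to 0.985% at 60, and the ratio of pair 1 goes from -0.55 to 0.22 while that of pair 4 goes from 0.06 to -0.10.

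Over all members, the knockout signal was slightly higher than the wild-type signal relative to the array. The median centred log2 ratio was 0.18 in pair 1, with quartiles of -0.32 and 0.36, and 0.24 in pair 4, with quartiles of 0.07 and 0.37. The mean of the 2 medians was 0.21 ± 0.04 (SD, n = 2 arrays). With spots chosen and measured on 1 array alone, the median was 0.23 in pair 4 and -0.45 in pair 1. All ranked spots had medians of 0.01 and 0.002. Of the members, 3326 (59.5%) were above 0 on both arrays and 789 (14.1%) below 0 on both, against 31.1% and 30.5% of all ranked spots. Members that were unsaturated in the knockout on both arrays had medians of 0.07 in pair 1 and 0.21 in pair 4. This choice leaves out high knockout signals, which by itself tends to lower the median, so nothing is read from the difference.

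The direction of this shift depended on how signals were scaled and on which sample chose the spots. With loess, which removes a trend of the ratio with brightness, the medians of the members were -0.033 in pair 1 and -0.046 in pair 4. Loess assumes that most spots do not change at any brightness, and a shift of the brightest spots is exactly what it takes away. Spots in the top 10% of the wild type of pair 1 alone had a median of -0.84 on that array and 0.10 on the other. Spots in that of pair 4 alone had medians of 0.43 and 0.23. When each array's spots were chosen by the wild type of the other array, the medians were 0.31 in pair 1 and 0.17 in pair 4. No difference between genotypes can be read from a median that turns with these choices.

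**Figure D3:**
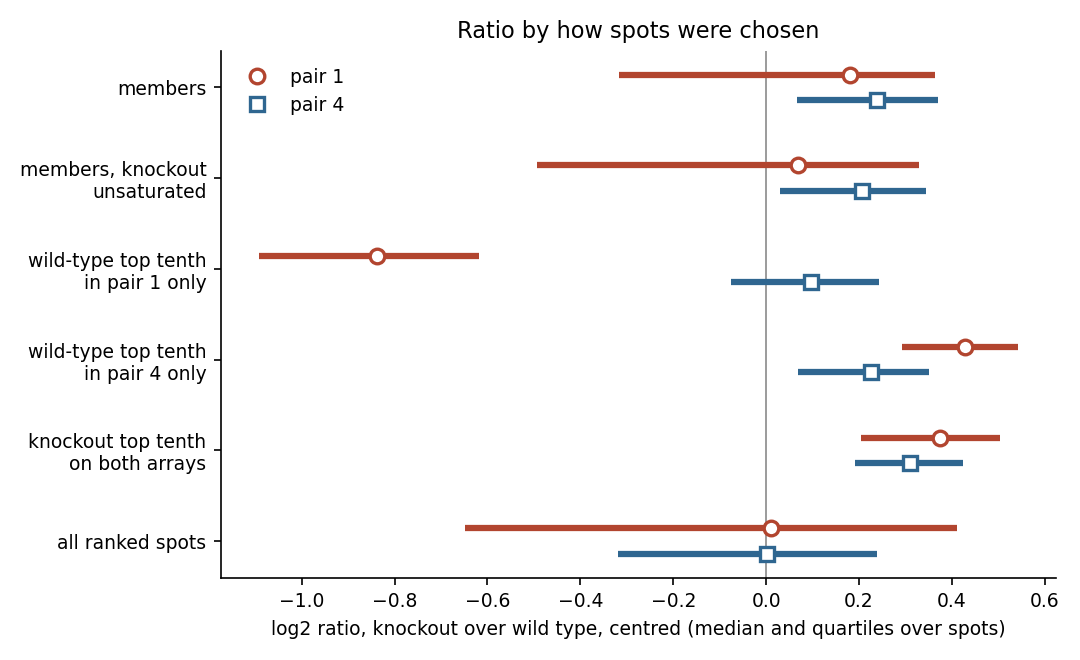
Median (open symbol) and quartiles (bar) over spots of the log2 ratio, knockout over wild type and centred on each array's median, for 6 sets of spots on the 2 arrays. Members lie at 0.18 in pair 1 and 0.24 in pair 4, and spots strongest in the wild type of pair 1 only lie at -0.84 in pair 1 and 0.10 in pair 4.

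The ratios of the 2 arrays were related among members and other strong spots, and not over the array as a whole. Pearson's r between the centred log2 ratios of pair 1 and pair 4 was 0.56 across the 5589 members and 0.04 across all 100045 ranked spots. It was 0.54 in members of 45 bases and 0.77 in those of 60 bases. The 326 members of 60 bases include 1 of the chromosome 5 probes, with ratios of -4.865 and -4.488, and those of 45 bases include neither. The value without this probe was not computed, so the 2 lengths are not compared. Spots in the top 10% of the wild type of pair 1 only gave 0.32, and those of pair 4 only 0.53. Spots in the knockout's top 10% on both arrays gave 0.36, so the relation was not particular to members. The wild-type signal that chose the members is also part of both ratios. Members share arrays, dyes and probe design on both axes, and the pair of chromosome 5 probes with very low ratios is among them.

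Members were spread over all ranked chromosomes. Their share of ranked spots was lowest on chromosome 3 outside the left-out window, with 3.58%, and highest on chromosome 17, with 6.73%. Among 165 bins of 10 Mb that held at least 200 spots, the median share was 5.34%. The lowest shares were 1.46% on chromosome 12 and 1.48% on chromosome 16, both from 0 to 10 Mb, and the highest was 12% on chromosome 13 from 60 to 70 Mb. The share of members in the knockout's top 10% on both arrays was between 74.2% on chromosome 3 and 86.2% on chromosome 7. The probes of chromosome 3 that were ranked also held the fewest of 45 bases, with 20.05%.

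Members lay in neighbourhoods of strong signal. Joined by the same distance, all ranked spots made 33758 intervals, and 3263 of them (9.67%) held a member. Their other 14021 spots had median rank percentiles of 74.7 and 75.4 in the wild types and 75.3 and 75.6 in the knockouts. The spots of intervals without a member had medians between 42.1 and 42.4 in the 4 channels. The 2 groups also differed in probe length. Probes of 45 bases made up 36.8% of the first group and 22.75% of the second, and those of 60 bases 16.2% and 37.9%. Intervals with a member had a median of 4 spots and those without 2. The percentiles were not compared within probe length or interval size. In intervals of more than 1 spot, 78.9% to 80.9% of the variance of log2 signal was between intervals. This share is not corrected for the few spots per interval, so part of it comes from the grouping alone. Probe length and interval size were not removed from it. An interval's spots share a fragment or neighbouring fragments, so they are not separate measurements of methylation.

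Within these intervals the members were usually a minority. In the median interval with a member, members made up 25% of the spots, and 1776 intervals held a single one. All spots were members in 125 of the 3204 intervals of at least 2 spots that held one. Of intervals with 1 spot, 0.452% held a member, and of intervals with 8 or more spots 42.5%. The share of spots that were members rose less with size, from 0.452% in intervals with 1 spot to 7.13% in those with 4 and 8.62% in those with 8 or more.

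Probes printed more than once show the noise of the selection. There were 5498 positions printed 2 times, and at 464 of them at least 1 spot was a member. Both spots were members at 308 of these positions (66.4%) and only 1 at the other 156. The median absolute difference in log2 signal between the 2 spots was 0.11 and 0.10 in the wild types of pairs 1 and 4, and 0.08 and 0.07 in the knockouts. Their centred log2 ratios differed by a median of 0.04 on each array, well below the 1.6-fold limit that the submitters set for a change.

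Values next to the threshold show how the limit cuts. The 3 members just inside were limited by pair 1, with wild-type signals there of 30351, 30351 and 30355. The one closest to the limit, chr2:74565292-74565351, had wild-type signals of 30351 in pair 1 and 13411 in pair 4. Its knockout signals were 30834 and 5946, which gave log2 ratios of -0.02 and -1.27. The 3 spots just outside had wild-type signals of 30348, 30349 and 30350 in pair 1. One of them, chr12:111904743-111904790, had knockout signals of 43234 and 14817, at percentiles 96.7 and 97.7. A spot just outside the limit could thus rank higher in the knockout than one just inside.

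The 3386 regions were small. Of these, 1932 held 1 member spot, 924 held 2, 360 held 3 and 140 held 4, while 30 held more, up to 8. The longest spanned 1381 bp. The submitters' rule counts an interval as changed when its averaged ratio is over 1.6-fold on both arrays, and it was applied here to the mean of the member spots. By it, 10 of the 3386 regions were lower in the knockout, where 4.6% of all 33758 intervals were. In the knockout 1 region was higher, where 1.88% of all intervals were. Selection on the wild-type signal is part of the ratio, so nothing is read from the distance between these shares.

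The single arrays gave other counts. In pair 1 alone 447 regions were over 1.6-fold lower and 6 higher, where 22.3% and 10.8% of all intervals were. In pair 4 alone 19 were lower and 20 higher, where 16.3% and 6.87% of all intervals were. With pair 1 left out of the choice of members as well, 35 regions of pair 4 were lower and 34 higher. With pair 4 left out 1772 of pair 1 were lower and 6 higher. Each of these sets was joined anew from 10005 spots and is not part of the 3386 regions. Of the 447 regions lower in pair 1, 199 had a ratio above 0 in pair 4. Both arrays together had 1945 regions above 0, 516 below 0 and 925 with opposite signs. The median absolute difference between the 2 arrays' log2 ratios of a region was 0.21.

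Calls on both arrays together were concentrated in weak intervals. With all 33758 intervals put in order of wild-type signal, 21.5% of the weakest 10% were lower on both arrays and 6.96% higher. In the strongest 10% it was 0.0296% and 0.118%, or 1 and 4 intervals. In pair 1 alone, 48.9% of the weakest 10% and 17.1% of the strongest were lower, and in pair 4 alone 34.1% and 0.207%. Between these ends the single arrays did not fall steadily. Pair 1 had 13.7% in the third group from the weakest and 24.6% in the eighth, and pair 4 was highest in the third, with 42.6%. When intervals were put in order by the mean signal of both channels, 27.8% of the weakest 10% and none of the strongest were lower on both arrays. Higher on both arrays were 1.54% of the weakest 10%, 11.2% of the second group and 0.296% of the strongest. Over all ranked spots, 91.4% and 93.3% were above background in the wild types of pairs 1 and 4, and the calls were not limited to these spots.

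**Figure D4:**
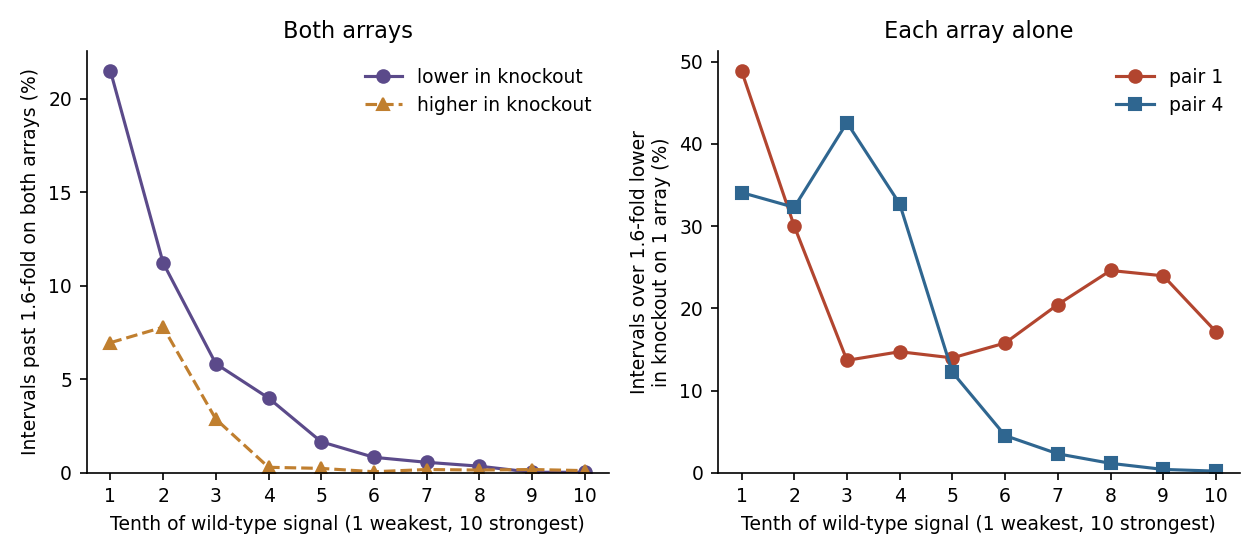
Left, the share of intervals, in percent, that were over 1.6-fold lower or higher in the knockout on both arrays, in 10 equal groups of rising wild-type signal. Right, the share over 1.6-fold lower on each array alone. On both arrays 21.5% of the weakest 10% and 0.0296% of the strongest were lower, while pair 1 alone still had 17.1% lower in the strongest 10%.

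The signal of 1 region was far lower in the knockout than in wild type on both arrays. It is chr5:146267158-146267272, a region of 115 bp with 2 member probes, which are also the only spots of their interval. The first probe, at chr5:146267158-146267205, had wild-type signals of 35148 in pair 1 and 9288 in pair 4, and knockout signals of 3680 and 1247. The second, at chr5:146267213-146267272, had wild-type signals of 56359 and 14680 and knockout signals of 1998 and 698. The wild types were high and the knockouts low on both arrays and for both probes.

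Averaged over its 2 probes, the chromosome 5 region had centred log2 ratios of -4.08 and -3.74, a mean of -3.91 ± 0.24 (SD, n = 2 arrays), which is a 15.1-fold lower signal in the knockout. It ranked at the 97th percentile in both wild types and at percentiles 28.7 and 30.6 in the knockouts. Its ratios kept this size under loess, with -3.99 and -3.71, and under another background correction, with -3.81 and -3.63. The authors' deposited table of decreased intervals lists it as chr5:146267013-146267525, with ratios of 0.0620 and 0.0812 on their 2 arrays and a mean of 0.07. No source used here names the build of that table, and its interval holds both probes at their mm9 positions. The next lowest of the 10 regions had a mean log2 ratio of -1.15, so this region stands far from the rest.

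A second decreased interval of the authors' deposited table also holds a member. The member probe is chr1:138849636-138849680, with wild-type signals of 33124 in pair 1 and 12703 in pair 4 and knockout signals of 18241 and 5179. Its log2 ratios were -0.91 and -1.39. The 3 probes that follow it were no members, and they gave ratios of -0.92, -0.93 and -0.77 in pair 1 and of -1.36, -1.51 and -1.11 in pair 4. The 2 probes before it, at chr1:138849433-138849489 and chr1:138849436-138849494, gave -0.23 and -0.30 in pair 1 and 0.00 and -0.04 in pair 4. The lower ratio thus began between probes about 200 bp apart, inside what joining by distance treats as 1 interval. The authors' deposited table gives chr1:138849567-138850127 with ratios of 0.559 and 0.420 and a mean of 0.49, and this stretch starts after the 2 probes with the weaker ratios. Of the authors' 246 decreased intervals, 228 hold a ranked probe and 2 of these a member. Of their 141 increased intervals, 134 hold a ranked probe and 0 a member. Of all 33758 joined intervals, 9.67% hold a member. As the wild-type signal is part of the authors' ratio, nothing is read from these shares.

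The other 8 lower regions were closer to the limit. Their mean log2 ratios over both arrays lay between -0.92 and -0.73, and 7 of them are 1 probe each. The region with 2 probes is chr11:97864186-97864364, with wild-type signals of 38997 and 10355, knockout signals of 23752 and 6812 and log2 ratios of -0.76 and -0.70. The 2 other spots of its interval gave means of -0.55 and -0.45, lower on both arrays but short of the limit. With normexp the region's own ratios were -0.56 and -0.64, also short of it.

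The single probe chr2:84584122-84584168 had wild-type signals of 36237 and 8046, knockout signals of 18729 and 4813 and ratios of -0.999 and -0.835. The probe chr15:85369930-85369985 had nearly the same ratio on both arrays, -0.87 and -0.87, from wild-type signals of 33070 and 10287 and knockout signals of 18715 and 6009. With normexp its ratio in pair 1 was -0.67, just short of the limit. Knockout signals of both probes lay below wild type on each array, at percentiles between 65.9 and 73.7.

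The single probe chr11:108796533-108796577 gave -1.09 and -0.68, and chr6:113234124-113234168 gave -0.95 and -0.74. The remaining probes of 45 bases, chr14:118631307-118631351 and chr11:79788128-79788172, gave -0.89 and -0.78, and -0.93 and -0.74. All 4 have 45 bases, the length whose ratios were low over the whole of pair 1. With ratios centred within each probe length, an alternative chosen after seeing the data, their pair 1 ratios were -0.53, -0.39, -0.33 and -0.37, short of the limit. The chromosome 1 probe and the region of 2 probes on chromosome 11, also of 45 bases, lost their call there too, with -0.35 and -0.20 in pair 1. All 6 lower regions of 45-base probes thus lost their call, and those on chromosomes 2, 5 and 15 and chr6:55414572-55414625 kept it. With normexp background correction only the regions on chromosomes 1, 2 and 5 kept their call, and the other 7 lost it.

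The last of the 10, the probe chr6:55414572-55414625, lies in an interval that splits in 2. It had wild-type signals of 36155 and 8402, knockout signals of 21397 and 5376 and log2 ratios of -0.80 and -0.74. With the 3 other probes at its end of the interval it had mean ratios of -0.65 in pair 1 and -0.63 in pair 4. The 4 probes at the other end had mean ratios of 0.68 and 0.57. The change of sign lay between probes 160 bp apart and was seen on both arrays. Averaged as 1 interval these 8 spots gave 0.01 and -0.03, so the joining by distance hid both directions. Where the SmaI sites lie between these probes was not analysed here.

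Most neighbours of the lower regions were not past the limit themselves. The intervals of the 10 regions held 51 other spots, of which 4 were over 1.6-fold lower on both arrays, 3 of them in the chromosome 1 interval. With all spots of an interval averaged, the chromosome 5 region was the only one of the 10 whose interval passed. The chromosome 1 interval missed the limit in pair 1, with -0.67, and had -0.90 in pair 4. Another 2 intervals with a member passed in this way, although their members did not. In chr11:105042134-105042920 the 6 spots averaged -0.99 and -0.84 and the member -0.89 and -0.06. In chr17:27194526-27195752 the 8 spots averaged -0.91 and -0.74 and the member -0.77 and -0.08. In both, the strong member was past the limit in pair 1 and near 0 in pair 4. Other spots of the interval carried the call in pair 4.

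**Figure D5:**
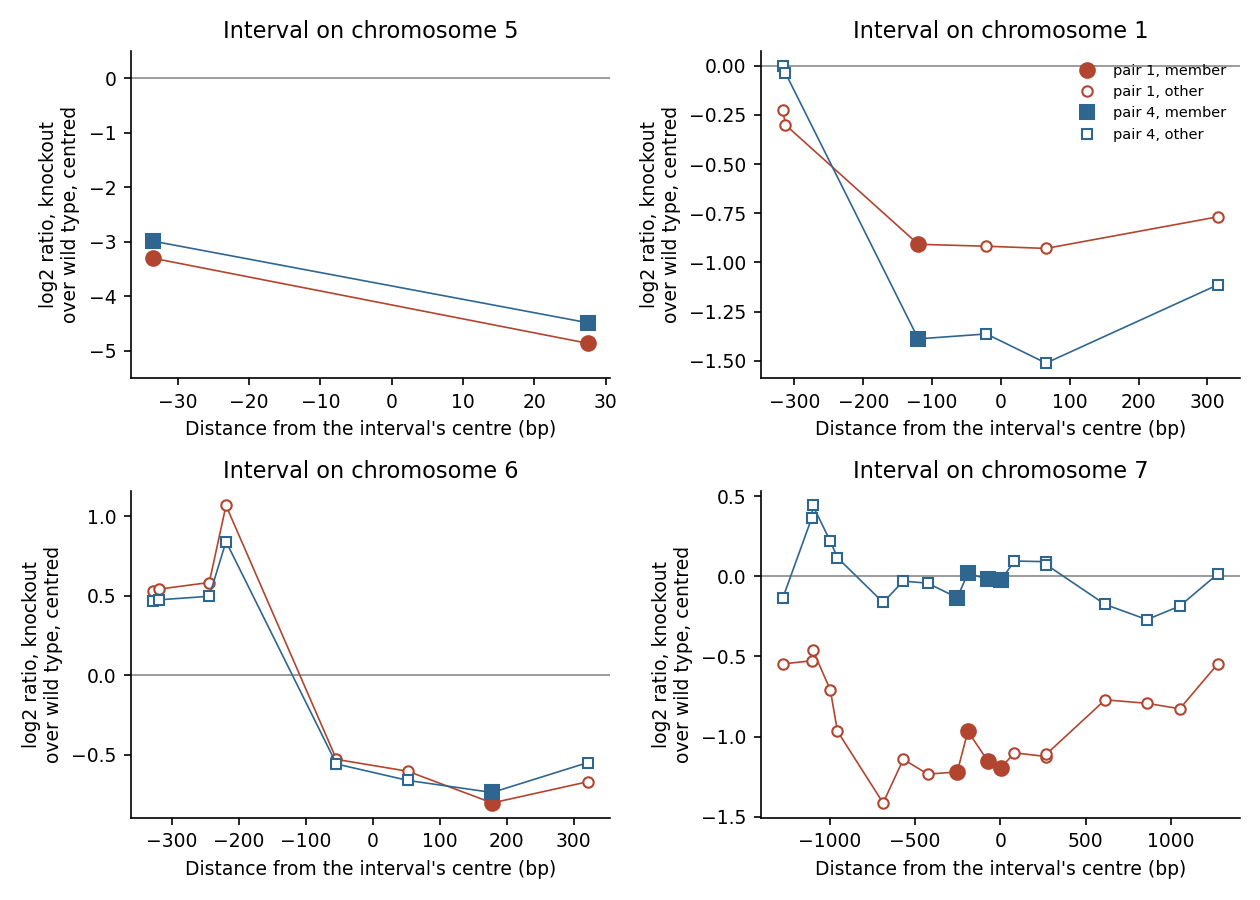
log2 ratio of each spot, knockout over wild type and centred on each array's median, against distance from the interval's centre in bp, for 4 intervals on the 2 arrays. Filled symbols are members and open symbols other spots. Both probes on chromosome 5 lie below -2.9, the chromosome 6 interval changes sign on both arrays, and on chromosome 7 all 19 spots of pair 1 lie below 0 while those of pair 4 scatter around it.

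The region higher in the knockout by the submitters' limit was chr8:87888806-87888850, a single position printed 2 times. Its member spot had wild-type signals of 30376 in pair 1 and 9156 in pair 4 and knockout signals of 50979 and 16161, with log2 ratios of 0.70 and 0.73. The other print of the same probe had a wild-type signal of 30331 in pair 1, just under the threshold, and gave 0.65 and 0.71. It is therefore no member, and 0.65 is short of the limit of 1.6-fold. The call thus hung on which of 2 prints of 1 probe was counted, and with loess the member's ratios were 0.50 and 0.44, short of the limit.

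Among regions of at least 2 member spots, the largest gain was at chr7:72350913-72351153. Its wild-type signals were 34407 and 8421 and its knockout signals 52225 and 15436, with log2 ratios of 0.56 and 0.78. The 2 other spots of that interval were also higher on both arrays, with 0.53 and 0.71 in pair 1 and 0.76 and 0.90 in pair 4. The knockout lay above wild type at all 4 spots, and no member spot there was saturated. With loess the region's ratios were smaller, 0.33 and 0.51.

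Smaller gains followed at other regions. The region chr2:156878339-156878392 had wild-type signals of 34104 and 8923, knockout signals of 48062 and 15399 and log2 ratios of 0.45 and 0.69. The position chr7:25318691-25318735, printed 2 times, had 34507 and 11062 in wild type, 52881 and 17509 in the knockout and ratios of 0.57 and 0.57. In the knockout both of its prints were saturated in pair 1 and 1 in pair 4, so its ratio is partly a bound. With loess the ratios were 0.24 and 0.42 at the first of these regions and 0.34 and 0.26 at the second.

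At the other end are the lowest mean ratios among regions of at least 2 member spots with the same sign on both arrays. The regions next after chromosome 5 were low mainly in pair 1. The position chr16:20693747-20693792, printed 2 times, had wild-type signals of 64611 in pair 1 and 10128 in pair 4 and knockout signals of 22586 and 8227. Its log2 ratios were -1.56 and -0.39, and the 2 other spots of its interval gave -1.63 and -1.58 in pair 1 and -0.32 and -0.33 in pair 4. The position chr10:79613466-79613510, also printed 2 times, had 51066 and 8798 in wild type, 21661 and 7053 in the knockout and ratios of -1.28 and -0.41. In both, the wild type of pair 1 ranked above the 99th percentile, and the other 3 samples lower.

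Some of the strongest regions were strong in every sample, and others in the wild type of pair 1 above all. Of regions with at least 3 member spots, chr17:39981533-39982341 had the highest mean wild-type signal. Its 4 probes, which are all spots of its interval, had mean signals of 58317 and 14810 in the wild types and 56268 and 18419 in the knockouts. It ranked above the 99th percentile in all 4 samples. All 4 probes were saturated in the knockout on both arrays, so its ratios of -0.09 and 0.25 rest on bounds. Whether these probes match several places in the genome was not tested.

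Of the next 5 by wild-type signal, 3 ranked near the top in all samples. The region chr11:115938733-115938903 had wild-type signals of 56900 and 14447 and knockout signals of 48252 and 16808. At chr19:46442319-46442544 they were 51286 and 15672 in wild type and 52054 and 16640 in the knockout, and at chr1:192199582-192199764 they were 47556 and 15894, and 50990 and 17412. These regions ranked above the 98th percentile in each channel. The knockout signal was saturated at all probes of the first and the last on both arrays, and at 2 and 3 of the 3 probes on chromosome 19, so knockout levels are bounds, no fold is given and equal strength cannot be read from them.

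The other 2 owed their place to pair 1. The region chr7:52961626-52961930 had wild-type signals of 69495 in pair 1 and 12084 in pair 4 and knockout signals of 33043 and 12628. Its log2 ratios were -1.13 and -0.04. At chr17:34066763-34067462 the wild-type signals were 69825 and 11068, the knockout signals 38059 and 12252 and the ratios -0.94 and 0.05. The probes of the first region's interval moved together: all 19 spots of the interval were below 0 in pair 1, from -1.42 to -0.46, and between -0.27 and 0.44 in pair 4. No spot was saturated in either region. The same stretch was thus over 1.6-fold lower in the knockout by 1 array and nearly equal by the other. Its percentiles were 99.7 and 96.6 in the wild types and 89.5 and 93.3 in the knockouts.

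The region with the most member spots, and the longest, was chr5:115996925-115998305, with 8 member probes over 1381 bp. It had mean signals of 35959 and 12048 in the wild types and 48114 and 15384 in the knockouts, with log2 ratios of 0.38 and 0.27. The interval around it held 22 spots, of which 9 were members, and its signal was not even. A run of 4 probes in it, from chr5:115995173-115995218 to chr5:115996500-115996554, had wild-type signals of 3762 or less in pair 1 and 1507 or less in pair 4, and was low in the knockouts too.

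Other long regions had similar values. The region chr8:97618329-97619561 held 7 member probes, with log2 ratios of 0.33 and 0.29, and chr7:53364372-53365181 held 7, with 0.26 and 0.20. The region chr5:37634872-37636014 held 7 spots, with 0.13 and 0.11, and chr4:120717108-120718398 held 4 over 1291 bp, with 0.23 and 0.31. Knockout signals were saturated at some probes in each of them, and the ratios of all 5 were above 0 on both arrays with median centring and lay between -0.18 and 0.17 with loess.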

How the data were processed

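Spots were read from the scanner files of 2 methylation arrays, whose spot intensity values the authors deposited. Per the file headers they come from Agilent Feature Extraction 10.5.1.1, while the submitters' processing notes name 8.5.1.1, and which one applies is unknown. The processed intensity has had its background subtracted and its dyes scaled, per the file headers. The files' own log10 ratio, also deposited, equalled that of the processed signals within 0.001 for 97.8% and 98.5% of positioned spots. The hit tables of the authors hold linear ratios, knockout to wild type, and no source used here says how these were normalised.

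The rule ranked 100045 of 103507 positioned spots. The log2 ratio of red over green had the array's median taken off, and loess was only an alternative, since most probes carry signal. Probes were joined over up to 500 bp. The limit of 1.6-fold on both arrays is the submitters'. With 2 arrays of 1 dye orientation, no test was run, and the number of arrays limits the precision. The member rule, the joining and the fold limit were run on simulated signals with known lower regions. The simulation had no saturation, no trend with probe length and no deviating wild type, so it does not check the calls against these. Loess and normexp (offset 50) used limma 3.58.1 in R 4.3.3, and other steps Python 3.11.15. For the label check, processed signals of the 4 expression arrays were used.

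The members, regions named and gene lists were chosen with earlier results of these data known. Regions were named by a rule: the 6 of at least 3 member spots with the highest wild-type signal, the 3 lowest and 3 highest by ratio with at least 2 member spots, the 3 longest, the 3 with most members, those at the threshold and those in the authors' tables. The 10 lower regions and 1 higher region were all given, and the intervals on chromosomes 11 and 17 that passed only as a whole were named after their values were seen. A planned test of the expression of genes at the regions was not run, as no source used here pairs mm9 positions with genes.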

Additional observations from a re-analysis of the deposited data

How the results depend on the processing

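Counts of members followed the limit on wild-type signal. A limit of 5% gave 2224 members and 20% gave 13797, and leaving out either array gave 10005. The median log2 ratio of members, 0.21, was 0.30 centred on the mean, 0.36 with normexp, 0.14 without saturated spots, 0.34 for spots chosen by the knockout and 0.30 for those chosen by the mean of both channels. It turned to -0.039 with loess. The choice of unsaturated spots leaves out high knockout signals, which by itself tends to lower the median. Leaving out 1 array gave 0.23 without pair 1 and -0.45 without pair 4. Of 3386 regions, 10 were lower and 1 higher. At 2-fold it was 1 and 0, with loess 31 and 0, and with normexp 3 and 19. With all spots averaged it was 3 and 0 of 3263 intervals. The other choices made other sets of regions. Spots chosen by the knockout gave 0 lower and 30 higher of 4121 regions. Those chosen by the mean of both channels gave 0 and 17 of 4177. Without 1 array, regions joined anew from 10005 spots gave 35 to 1772 lower and 6 to 34 higher. Shares over all intervals are given only for 1.6-fold with median centring. On both arrays these were 4.6% lower and 1.88% higher. All 10 lower regions were among the 31 with loess. The share of members in the knockout's top 10%, 81.9%, was 77.3% at 5% and 86.7% at 20%, and 48.7% to 82.3% without 1 array.

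Alternatives chosen after seeing the data were ranking and centring within each probe length. The ranking gave 10 lower and 3 higher of 3873 regions, and a knockout share of 84.1%. The centring gave 6 lower and 2 higher of the 3386 regions. Of these, 4 of the lower and 0 of the higher regions were among those of the main setting. Joining over 250 or 1000 bp, single probes and leaving out saturated spots kept the counts of regions within 1.5 times. No test was run on these counts, and knockout values of saturated spots are only bounds. No paired analysis was possible because no result comes from a test: each ratio is already the difference within 1 pair, so no fit without the pairing exists to set a block against. The planned limma fit of genes at the regions was not run.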

Other observations

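Spots that the rule left out can be set against the same thresholds. On chromosome X, 18 of 1921 spots (0.937%) passed both wild-type thresholds, and 15 of them were also in the knockout's top 10% on both arrays. Their median centred log2 ratios were 0.31 in pair 1 and 0.34 in pair 4. The share of 45-base probes on chromosome X was 25.1%, against 26.4% of ranked spots.

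In the 40 Mb window of chromosome 3, 84 of 1541 spots (5.45%) passed both thresholds, and 63 of them were in the knockout's top 10% on both arrays. Their median log2 ratios were 0.11 and 0.19. On the rest of chromosome 3, 89 of 2489 spots (3.58%) passed, 66 of them in the knockout too, with medians of -0.06 and 0.16.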
